A study of Drosophila melanogaster with 2 samples.

Results

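RNA levels were examined for genes that encode the Integrator complex, the cleavage and polyadenylation machinery, and the factors of histone mRNA processing and cap binding, in Kc167 cells, a Drosophila melanogaster cell line of embryonic origin. The genes were chosen by name, with a list of 35 symbols, and 33 of them were found among the 17807 genes of the deposited table. IntS5 and IntS7 were found under the current symbols omd and defl. The current identifiers of IntS8 and Cpsf5 matched no row, so both genes were not analysed here. Whether the deposited table holds them under older identifiers was not determined. The data are RNA-seq libraries of replicates 1 and 2 of a single group, for which the labels name no genotype. The cells were grown at 25 °C and exposed to 2% DMSO for 1 h as the control, at room temperature by the study's methods. No other treatment was measured, so levels were compared between genes and between the libraries only. Even for 2 libraries against 2, a comparison not made here, the smallest two-sided p of an exact permutation test is 0.333. A line grown in culture is a limited model of any tissue of the fly, and the labels do not say whether the replicates came from separate cultures.

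Most mRNAs acquire their 3′ end when CPSF, the cleavage and polyadenylation specificity factor, recognises the poly(A) signal and cuts the transcript, after which poly(A) polymerase adds the tail. CstF, the cleavage stimulation factor, binds downstream of the cut, and cleavage factors I and II help to choose the site and to end transcription. Replication-dependent histone mRNAs carry no poly(A) tail: the stem-loop binding protein and the U7 snRNP guide the same endonuclease to a different kind of site. Integrator is a separate RNA-cleaving complex that forms the 3′ ends of spliceosomal snRNAs and ends transcription early at many protein-coding genes, and it carries a phosphatase, PP2A. The nuclear cap-binding complex holds the other end of the nascent RNA and, with Ars2, connects it to processing and decay.

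Replicate 1 held 33436865 read pairs counted on genes and replicate 2 held 31721648. The 33 genes took 100104 of these counts in replicate 1 and 96111 in replicate 2, or 0.299% and 0.303%. Of the 7 plasmatocyte markers checked, the collagen genes Col4a1 and vkg reached 263 and 192 TPM, the transcription factor gene srp 116, Hml 60.0, Pxn 10.2, eater 3.45 and NimC1 2.42. Of the genes of male dosage compensation, lncRNA:roX1 had 6 counts in each library, lncRNA:roX2 16 in each and msl-2 454 and 449. Of the germline markers, bam reached 36.5 TPM and vas 5.73, and nos, also listed, matched no current symbol and was left out. Muscle markers were at 20.8 TPM for Mlc2, 0.161 for Mhc and 0.131 for up, which had 4 and 7 counts. Neuronal markers were at 1.54 TPM for elav, 0.219 for nSyb and 0.176 for brp. In a bulk sample, fewer cells that hold an RNA and less RNA per cell cannot be told apart.

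A minimum of 10 counts per library was passed by all 33 genes, against 49.7% of the genes in the table, and a minimum of 100 by all 33 too. The lowest count was 239, at Lsm10 in replicate 1, and the highest was 9073, at Pabp2 in replicate 1. Levels are given as TPM, the count per exonic base scaled to the same total in each library, with each exonic base of a gene counted once. On this scale the median of the 33 genes was 5.67 as log2(TPM + 1), with 5.65 in replicate 1 and 5.68 in replicate 2. The 8230 other protein-coding genes past the same minimum had a median of 37.6 TPM, or 5.27 as log2(TPM + 1), a difference of 0.40 ± 0.0168 (SD, n = 2) in log2(TPM + 1). This difference was 0.87 with the deposited length and 3.54 when genes under the minimum were kept among the others. With exonic lengths, 24 of the 33 genes lay above the median of all protein-coding genes past that minimum. Of the 33, 8 were above percentile 75 and 0 below percentile 25, from percentile 27.5 for Lsm11 to 93.3 for Pabp2. With the deposited length the range ran from percentile 21.7 for IntS6, thus below percentile 25, to 93.6 for Slbp. These medians describe the list and no test was made on it, since genes are not replicates.

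The levels spanned 17.7-fold, from Pabp2 at 247 ± 2.26 TPM (SD, n = 2) to Lsm11 at 14.0 ± 0.846 (SD, n = 2). Pabp2, Cpsf6 and Slbp were the highest and Lsm11, IntS6 and IntS12 the lowest. With the deposited length the highest were Slbp, Pabp2 and IntS11 and the lowest IntS6, Pcf11 and IntS5, and Cpsf6 was at rank 5. Of the 32 pairs of neighbours in the order of levels, 25 had libraries that did not overlap and 7 had libraries that did: hrg and Cbp20, Sym and Cbp80, Cbp80 and IntS4, IntS4 and Wdr33, Cpsf100 and Pcf11, IntS7 and IntS5, and IntS1 and CstF64. In the middle of the order the steps are small, so that Sym, Cbp80, IntS4 and Wdr33 all lay between 49.1 and 51.8 TPM in both libraries. Some steps without overlap were small too, such as 1.03-fold from IntS14 to CstF50 and 1.02-fold from IntS9 to Cpsf160. Here and below, overlap describes 2 values per gene. It does not establish the order of neighbours, which was not tested against counting error.

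**Figure D1:**
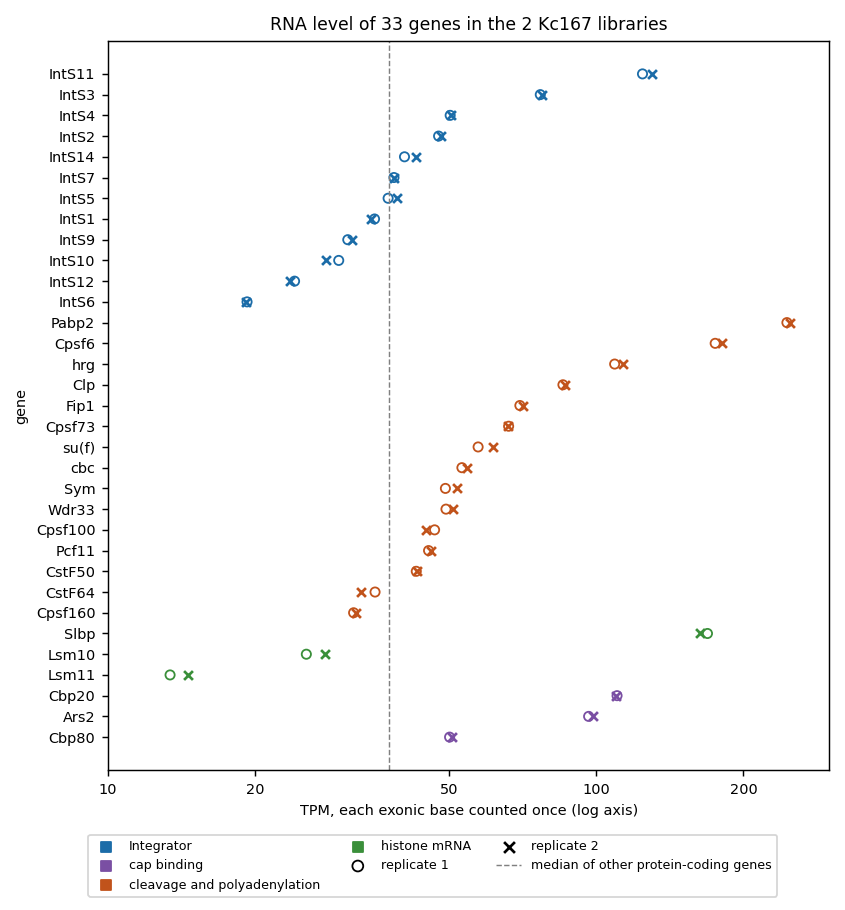
Each row is a gene and the x axis is its RNA level in TPM with each exonic base counted once, on a log axis; circles are replicate 1, crosses replicate 2, colours the 4 groups of genes, and the dashed line the median of other protein-coding genes, 37.6 TPM. IntS11 stands to the right of the other Integrator genes, and Pabp2, at 247 TPM, lies farthest right of all 33.

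The 12 Integrator genes had a median of 38.4 TPM and lay close to the median of other protein-coding genes, with 7 of 12 above the midpoint of all protein-coding genes. With the deposited length the medians were farther apart, at 57.5 TPM for the Integrator genes and 32.5 for the other protein-coding genes. IntS11, the endonuclease of the complex, stood above the rest, with 124 TPM in replicate 1 and 129.7 in replicate 2. Its mean was 3.31 times the median of the group and 1.65 times the level of IntS3, the next gene, at 76.7 and 77.4 TPM. IntS3 is a peripheral subunit that in human cells also belongs to a sensor of single-stranded DNA. The libraries of both genes lay outside the range of the other 10.

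The partners of IntS11 in the cleavage module were less abundant. IntS4, which holds the module together, had 50.2 and 50.3 TPM, and IntS9, the inactive relative of IntS11, had 31.0 and 31.6. IntS11 was thus 4.01 times IntS9 in replicate 1, with a 95% interval from 3.76 to 4.29, and 4.11 times in replicate 2, from 3.85 to 4.40. These are Wilson intervals, and they cover counting error only.

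The scaffold genes were close together. IntS2 had 47.5 and 48.0 TPM, IntS7 had 38.5 in both libraries and IntS1, the largest subunit, had 35.1 and 34.5. IntS5, which sits beside them in the complex, had 37.4 and 39.1 TPM, and its libraries enclosed those of IntS7. IntS14 and IntS10, which belong to the module that contacts nucleic acid, differed, with 40.5 and 42.6 TPM for IntS14 against 29.7 and 28.0 for IntS10. IntS12, a small subunit with a PHD finger, had 24.1 and 23.6 TPM.

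IntS6, which links PP2A to the complex, was the lowest of the 12, with 19.3 and 19.1 TPM. The 12 genes spanned 6.62-fold, and the 11 other than IntS11 spanned 4.02-fold. With the deposited length the 12 genes spanned 30.4-fold, from IntS6 to IntS11. The group had a lower median than the cleavage and polyadenylation genes, by 0.47 on the log2(TPM + 1) scale in replicate 1 and by 0.48 in replicate 2. With the gene length as deposited this difference was 0.31, in the same direction.

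The 15 cleavage and polyadenylation genes had a median of 53.7 TPM, with 13 of 15 above the midpoint of protein-coding genes. The 3 highest were Pabp2, Cpsf6 and hrg, although with the deposited length hrg, at 53.1 TPM, was below Clp, Fip1 and Cpsf73, among others. Pabp2, which coats the nuclear poly(A) tail and sets its length, had 246 and 249 TPM. Cpsf6, the larger subunit of cleavage factor I, had 175 and 181, and hrg, the poly(A) polymerase gene hiiragi, had 109 and 114. None of these libraries overlapped those of another gene in the group.

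The 7 CPSF genes, counting the scaffold Sym among them, spanned 2.68-fold, and 5.17-fold with the deposited length. Clp, the homolog of CPSF30 that reads the poly(A) signal, had 85.4 and 86.4 TPM. Fip1, which brings poly(A) polymerase to the complex, had 69.7 and 70.9, and the endonuclease gene Cpsf73 had 66.1 and 66.0. Sym had 49.1 and 51.8 TPM, Wdr33, the other reader of the poly(A) signal, had 49.2 and 50.8, and their libraries overlapped. Cpsf100, the inactive partner of Cpsf73, had 46.6 and 44.7. Cpsf160, the large scaffold that binds Wdr33 and Clp, was the lowest of the 15 genes, with 31.8 and 32.2 TPM.

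The 3 CstF genes lay between 32.9 and 61.3 TPM in single libraries. The gene su(f), the homolog of CstF77, had 57.2 and 61.3 TPM, CstF50 had 42.8 in both libraries, and CstF64, which binds the RNA itself, had 35.2 and 32.9. Their libraries did not overlap. With the deposited length su(f) was the lowest of the 3, at 34.4 TPM against 53.4 for CstF64 and 67.1 for CstF50. In cleavage factor II, cbc, the homolog of the RNA kinase CLP1, had 53.0 and 54.4 TPM, and Pcf11, which binds the tail of RNA polymerase II, had 45.3 and 45.8.

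The endonucleases and their inactive partners are related proteins, so their levels were set side by side. IntS11 was 1.88 times Cpsf73 in replicate 1 (95% interval from 1.79 to 1.97) and 1.97 times in replicate 2 (1.87 to 2.07). Among the partners the order was the other way round, and Cpsf100 was 1.51 times IntS9 in replicate 1 (1.40 to 1.62) and 1.42 times in replicate 2 (1.31 to 1.53). Within CPSF, Cpsf73 was 1.45 ± 0.0407 times Cpsf100 (SD, n = 2), a smaller step than the 4.06 ± 0.0691 times (SD, n = 2) from IntS9 to IntS11. Each of these 4 genes has 1 annotated transcript, so the ratios are the same with the deposited gene length.

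In the histone group the stem-loop binding protein gene stood apart from those of the U7 snRNP. Slbp had 169 TPM in replicate 1 and 163 in replicate 2. Lsm10 and Lsm11, which replace a pair of Sm proteins in the ring of the U7 snRNP, had 25.5 and 27.8 TPM and 13.4 and 14.6 TPM. Slbp was 11.9 ± 1.00 times Lsm11 (SD, n = 2), and Lsm10 was 1.90 times Lsm11 in both libraries, with 95% intervals from 1.59 to 2.27 and from 1.60 to 2.27. Both Lsm genes rest on 239 to 254 counts in a library.

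The cap-binding genes were all above the median of protein-coding genes. Cbp20, the subunit that holds the cap, had 110.2 and 109.9 TPM, and Cbp80, its larger partner, had 50.04 and 50.6. Cbp20 was thus 2.19 ± 0.0218 times Cbp80 (SD, n = 2) with exonic lengths and 4.18 ± 0.0417 times with the deposited ones. Ars2 lay between them, with 96.4 and 98.2 TPM, although with the deposited length it was at percentile 47.9.

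Transcripts of snRNA genes and of replication-dependent histone genes were hardly measured. Of the 29 genes whose symbol starts with snRNA:U, 7 were at 0 in both replicates and 4 passed the minimum of 10 per library, and all together had 116 counts in replicate 1 and 106 in replicate 2. The highest was snRNA:U5:63BC, with 23 and 14 counts. Of the 111 replication-dependent histone genes, 108 had 0 counts in both libraries and all together had 8 counts in each. The kit selects poly(A) RNA, and read pairs placed at several sites, 11.2% of replicate 1 and 10.8% of replicate 2, were counted on no gene, so these counts say little about the levels of the RNAs. A count of 0 allows up to 3 counts, or 0.0897 CPM, the count scaled to the library total, in replicate 1 and 0.0946 in replicate 2.

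A further 16 genes of these pathways were listed, of which 15 were matched to the table. All 15 passed the minimum of 10 and 11 lay above the median of protein-coding genes. The gene asun encodes the Integrator subunit IntS13 and had 14.4 and 14.9 TPM with exonic lengths. On this scale it was below every one of the 12 Integrator genes described above, and IntS6 was 1.31 times as high. With the deposited length asun was not compared. The PP2A genes mts and Pp2A-29B, whose products serve many complexes besides Integrator, reached 441 ± 10.2 and 279.6 ± 7.15 TPM (SD, n = 2). In the histone pathway, FLASH, mxc and mute had 59.3, 30.8 and 32.1 TPM. Cytoplasmic poly(A)-binding protein, encoded by pAbp, reached 2718 ± 42.7 TPM (SD, n = 2), above all 33 genes.

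The libraries were then compared gene by gene. The count of replicate 1 was set against the count of both libraries with a two-sided exact binomial test, scaled to the library totals and adjusted by the Benjamini-Hochberg method over 8846 genes. The test compares the reads of these libraries, not conditions. Of all genes tested, 0.497% were called higher in replicate 1 and 1.02% higher in replicate 2 at an adjusted p under 0.05. None of the 33 genes was called, 0 in either direction. At an unadjusted p under 0.05 there were 3, or 9.09%, against 10.1% of all genes: su(f), with 2982 and 3016 counts (exact p = 0.0136, adjusted p = 0.285), hrg, with 8640 and 8503 (exact p = 0.0164, adjusted p = 0.306), and Sym, with 3380 and 3366 (exact p = 0.0471, adjusted p = 0.488).

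Relative to the totals, 21 of the 33 genes were higher in replicate 2 and 12 in replicate 1. This split depended on the scaling, and with the size factors of DESeq2 it was 17 and 16, and with totals that leave out mitochondrial genes 16 and 17. The largest log2 ratios of replicate 1 to replicate 2 were -0.12 ± 0.131 for Lsm10 (counting SE), -0.12 ± 0.129 for Lsm11 and 0.10 ± 0.0710 for CstF64. The ratios of Lsm10 and Lsm11 lay within 1 counting SE of 0 and that of CstF64 did not. The median absolute log2 ratio was 0.03 over the 33 genes and 0.05 over all genes tested. The coefficient of variation between the libraries had a median of 1.35% and was at most 6.11%, and counting error alone is 6.47% at 239 counts and 1.05% at 9073.

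**Figure D2:**
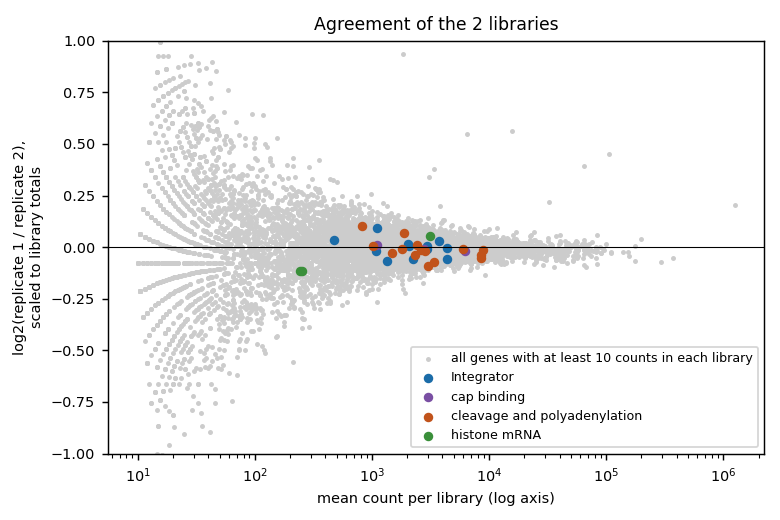
The x axis is the mean count of a gene per library on a log axis and the y axis the log2 ratio of replicate 1 to replicate 2 scaled to the library totals; grey points are all genes past the minimum of 10 counts, coloured points the 33 genes by group, and 20 grey points lie outside the drawn range. The coloured points lie within 0.12 of 0.

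The order of the genes depended on what is taken as the length of a gene. For all 33 genes the deposited length was the sum of the exons of every annotated transcript, in which a shared exon enters more than once. The 22 genes with 1 annotated transcript (66.7%, against 39.9% of protein-coding genes past the minimum of 10) are not affected by this, except for the common rescaling of -0.65 in log2. The deposited length was over 2 times the exonic length in 6 of the 33 genes, against 29.2% of the genes past the minimum of 10 that have an exonic length.

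Ars2, with 6 transcripts, had a deposited length of 19478 bases and an exonic length of 3847, and it moved from rank 28 at 30.1 TPM as deposited to rank 7 at 97.3 TPM. The gene hrg, with 4 transcripts, moved from rank 20 at 53.1 TPM to rank 5 at 111 TPM. Thus the poly(A) polymerase gene ranked below the median of the list as deposited and among its highest genes otherwise. The gene su(f) moved from rank 27 at 34.4 TPM to rank 12 at 59.3, and Pcf11, with 7 transcripts and 34274 deposited bases against 7815 exonic ones, moved from rank 32 at 16.3 to rank 20 at 45.6.

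IntS5 moved from rank 31 at 21.3 TPM to rank 24 at 38.3. IntS6, with 5 transcripts, was the lowest of all 33 as deposited, at 6.543 TPM, and remained near the bottom at rank 32 with 19.2 TPM. The span of the 33 genes was 39.8-fold as deposited and 17.7-fold with exonic lengths. Across the 33 genes, Spearman's rho between the number of transcripts and the level was -0.529 as deposited and 0.138 with exonic lengths, a description of genes that share the same libraries and scaling. Wdr33, with 5583 deposited and 2798 exonic bases, lay just under the ratio of 2.

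**Figure D3:**
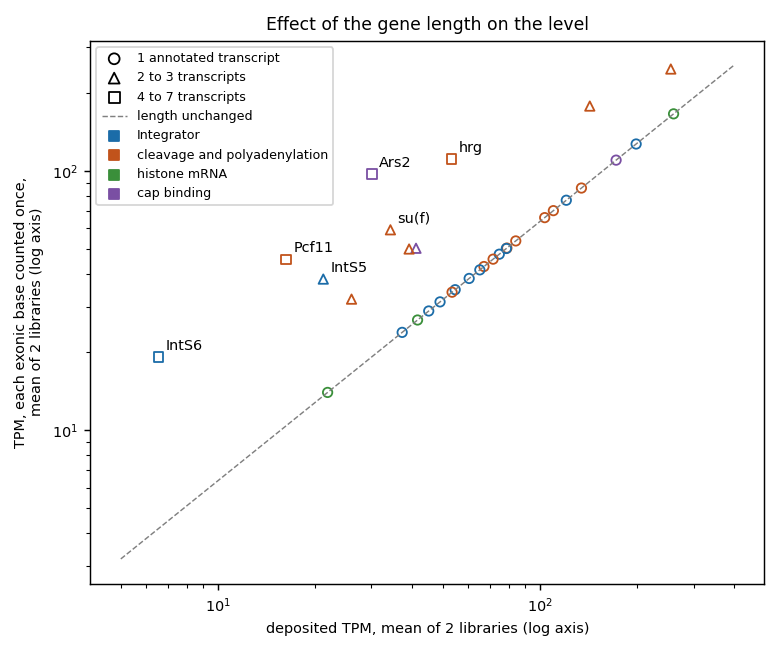
The x axis is the deposited TPM and the y axis the TPM with each exonic base counted once, both as the mean of 2 libraries on log axes; each point is a gene, its shape gives the number of annotated transcripts and its colour the group. The dashed line marks genes whose length did not change, and the 11 genes with 2 or more transcripts lie above it, the 6 named ones farthest.

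The strand of the reads mattered for 3 genes. The deposited counts use read pairs that match the strand of the gene, and they were set beside unstranded counts, where read pairs in exons of overlapping genes are left out. The unstranded count was under 95% of the strand-matched one for 3 of the 33 genes, against 14.2% of all genes past the minimum. This threshold was chosen after the values were seen.

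Wdr33 lies on the plus strand of chromosome 3R, from 5660635 to 5665169 in BDGP6.54, and 61.2% of its exonic bases are shared with asRNA:CR46134, an antisense RNA gene on the minus strand. Its unstranded count was 1293 in replicate 1 and 1250 in replicate 2, against 2379 and 2319 strand-matched. The antisense gene itself had 13 and 14 strand-matched counts. Without the strand, Wdr33 would be listed at 27.1 and 27.8 TPM in place of 49.2 and 50.8.

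IntS11 lies on the plus strand of chromosome 3R, from 29745337 to 29747513, and shares 32.7% of its exonic bases with asRNA:CR46109, which had 28 and 23 counts. Its unstranded counts were 2937 and 2897, against 4388 and 4325, and its level would be 84.4 and 88.3 TPM, still the highest of the Integrator genes. Lsm10, which shares 81 exonic bases with the proteasome gene Prosbeta5 on the other strand, had 211 and 227 unstranded counts against 239 and 246. For the other 30 genes the ratio of unstranded to strand-matched counts lay between 0.993 and 1.07.

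**Figure D4:**
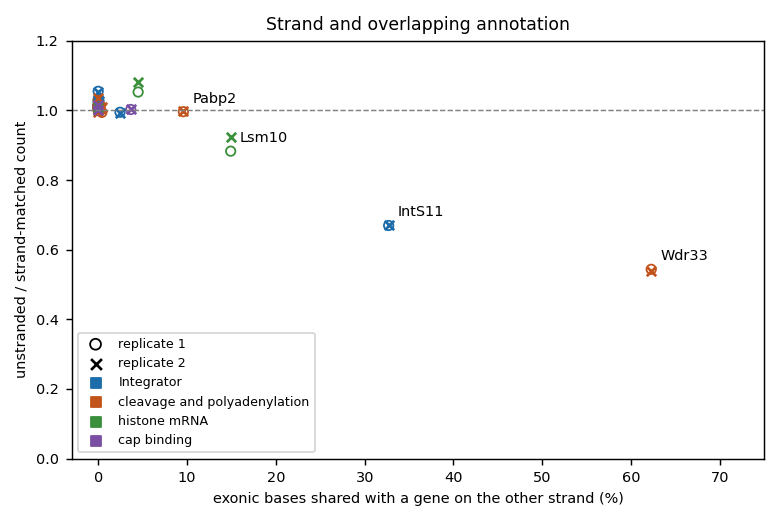
The x axis is the percentage of a gene's exonic bases shared with a gene on the other strand and the y axis the unstranded count divided by the strand-matched count; circles are replicate 1, crosses replicate 2, colours the groups, and the dashed line a ratio of 1. Wdr33 and IntS11 lie lowest, at ratios of 0.544 and 0.669 in replicate 1.

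Reads on the opposite strand were few. Their share of the reads on both strands had a median of 1.36% over the 33 genes and 1.52% over all genes past the minimum. It was over 10% for 1 of the 33 genes, against 16.4% of all genes. This gene was Lsm11, on the minus strand of chromosome 2R from 9838434 to 9839500, with 26 opposite-strand counts in replicate 1 and 45 in replicate 2. The shares were 9.52% (95% Wilson interval from 6.58% to 13.6%) and 15.1% (11.4% to 19.5%). These intervals overlap, but whether the shares differ between the libraries was not tested. Lsm11 shares 48 exonic bases with CG1663 on the plus strand, which had 463 and 491 counts, and the part of that gene in the opposite-strand reads was not tested. IntS12 was next at 5.10%, followed by IntS5 at 4.85% and IntS1 at 3.87%. Cpsf73 and CstF64, neighbours on chromosome 3R that point towards each other and share their last 6 bases (18659618 to 18661126 for CstF64 and 18661121 to 18663552 for Cpsf73), had shares of 0.917% and 1.60%.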

How the data were processed

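RNA-seq was analysed for replicates 1 and 2 of the DMSO control. According to the study's methods and the submitters' processing notes, paired-end reads from a stranded kit with poly(A) enrichment were aligned to dm6 with STAR 2.7.1a and counted per gene. The authors deposited raw counts per library in 3 strand columns, and a combined table with the strand-matched counts, a length per gene and its TPM. The deposited TPM is the count over the table's gene length, scaled per library.

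TPM was recalculated with exonic lengths taken from Ensembl release 115 (BDGP6.54, dm6 coordinates), available for 17710 of 17807 genes. The other 97 were left out. Fold changes in TPM use no pseudocount, and medians use log2(TPM + 1). Per library, 21.6% and 21.0% of read pairs were counted on no gene and stayed out of the totals. These include the pairs placed at several sites, 11.2% and 10.8%. With 1 group, no edgeR quasi-likelihood test was possible. edgeR 4.0.16 (TMM) and DESeq2 1.42.0 served as alternative scalings in R 4.3.3. Other steps used Python 3.11.15 and scipy 1.17.1. The exact binomial test was tested on simulated counts that held counting error only, so that check does not cover further spread between libraries. The binomial test measures only the spread between these libraries.

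Genes and lists were chosen with earlier results of these data known. All genes of the list are named, and those at the ends of the order, the endonuclease pairs, the largest library differences, and those that depended on strand or length are given in full. A search for promoter motifs was not run here.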

Additional observations from a re-analysis of the deposited data

How the results depend on the processing

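The median log2(TPM + 1) of the 33 genes was 5.94 with the deposited length, 5.62 with the longest transcript as length, 5.64 with unstranded counts and 5.65 with a pseudocount of 0.1, and lay between 5.65 and 5.68 in single replicates. The difference from other protein-coding genes was 0.87 with the deposited length, 0.36 with the longest transcript and 3.54 without a filter on low counts, which adds genes with few or no counts to the other genes, and lay between 0.38 and 0.40 in single replicates. The difference of Integrator from cleavage and polyadenylation genes was -0.31 with the deposited length, -0.51 with the longest transcript, -0.46 with unstranded counts and -0.48 with a pseudocount of 0.1, and lay between -0.48 and -0.47 in single replicates. The cause of the change with unstranded counts was not tested.

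All 33 genes passed the count minimum under each alternative run, single replicates included. With an opposite-strand threshold of 5% in place of 10% there were 2 genes, Lsm11 and IntS12. At 10% there were 0 to 1 in single replicates, since without replicate 2 Lsm11 was at 9.52%. The number with a deposited length over 2 times as large was 6 with the longest transcript too. With TMM, DESeq2 size factors, totals without mitochondrial genes or unstranded counts, 0 of the 33 genes were called between the libraries, with smallest adjusted p from 0.246 to 0.427 by the exact binomial test, and 1 to 3 had an unadjusted p under 0.05. Of the 33 TPM values, 33 moved by more than 1 SD with the deposited length, 27 with the longest transcript and 25 with unstranded counts. These counts include the common rescaling of TPM, set against an SD of 2 libraries. Cbp20, with 600 bases by each length, moved from 110.1 to 105.6 TPM with the longest transcript. With unstranded counts it moved to 111.8 TPM, although its counts were 1144 and 1076 against 1143 and 1076. The 3 highest and the 3 lowest genes were the same with the longest transcript and changed with the deposited length, and with unstranded counts Lsm10 took the place of IntS12 among the lowest. No paired analysis was possible because there was only 1 group. At 239 counts the counting error is 6.47%, which limits the comparison of Lsm10 and Lsm11.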
